A study of Mus musculus with 24 samples.

Results

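The genes described here encode receptors for glutamate, GABA and glycine. They were chosen by gene symbol: the AMPA (Gria), NMDA (Grin), kainate (Grik) and delta (Grid) subunits, the metabotropic glutamate receptors (Grm), the GABA-A (Gabra, Gabrb, Gabrg, Gabrd, Gabre, Gabrq and Gabrr) and GABA-B (Gabbr) subunits, and the glycine receptor subunits (Glra and Glrb). Of the 17270 genes listed, 45 matched: 4 AMPA, 6 NMDA, 5 kainate, 2 delta, 7 metabotropic glutamate, 16 GABA-A, 2 GABA-B and 3 glycine receptor genes. The symbols Grin3b, Grm6, Gabra6, Gabrp, Gabrr3, Glra1 and Glra4 would also have matched and are not among the rows used here. The group was proposed with its fall 7 days after stroke already known, so the 7-day stroke values below are a description and carry no p-value. The study had also listed glutamatergic pathways as unresolved, that is, regulated at both 24 h and 7 days. The choice was thus not blind to 24 h, and the p-values at 24 h are not independent evidence.

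Brain microvessels were isolated from male C57BL/6J mice aged 10 to 12 weeks that had undergone transient middle cerebral artery occlusion (tMCAO, 60 min of filament occlusion followed by reperfusion, a model of ischemic stroke) or sham surgery, in which the filament was withdrawn at once. The ipsilateral (operated) and contralateral hemispheres were collected separately 24 h or 7 days later, which gave 8 groups: sham and tMCAO, each on both sides and at both times. Each library came from 3 pooled hemispheres, so 3 libraries and 9 animals stand behind a group. The study prepared 4 libraries a group and removed outliers, and the vessels came from whole hemispheres, so that infarct, peri-infarct and intact tissue were mixed.

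Glutamate is the main excitatory transmitter of the brain. AMPA and kainate receptors are cation channels that carry fast excitation, NMDA receptors admit calcium and need glutamate together with glycine or D-serine, and metabotropic receptors act through G proteins. GABA-A and glycine receptors are chloride channels that inhibit, and GABA-B receptors inhibit through G proteins. Most of these subunits are made by neurons. Several are also known from astrocytes (Grm3, Grm5, Gabrg1, Gabra2), Bergmann glia or oligodendrocyte precursors, and a vessel preparation can carry nerve endings and astrocyte endfeet with it.

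Many neuronal genes carry an RE1 element, the DNA site of the repressor REST, which keeps them silent in other cells. Promoters were searched for the conserved 8 letters of each side of that element, TCAGCACC and GGACAGCG, on both strands. Only exact matches were counted, so a side with a changed letter was missed. Neither promoter printed below can therefore be said to lack the other side. The 2 motifs do not overlap each other. RefSeq promoters (250 bases before to 50 after the start, GRCm38.p6) were present for 30 of the 45 genes. GGACAGCG was found in 1 of these 30, Gria2, and in 1.48% of 27025 genes; TCAGCACC was found in 1 of 30, Grm2, and in 1.85% of genes. Both promoters are shown because they are the matches among the receptor genes, each as the 250 bases before the start, read along the gene, with the match in capitals. Gria2 lies on the minus strand of chromosome 3 (chr3:80802836-80803085) and its match, which begins 172 bases before the start, is on the opposite strand. Grm2 lies on the minus strand of chromosome 9 (chr9:106656110-106656359) and its match begins 241 bases before the start.
Gria2: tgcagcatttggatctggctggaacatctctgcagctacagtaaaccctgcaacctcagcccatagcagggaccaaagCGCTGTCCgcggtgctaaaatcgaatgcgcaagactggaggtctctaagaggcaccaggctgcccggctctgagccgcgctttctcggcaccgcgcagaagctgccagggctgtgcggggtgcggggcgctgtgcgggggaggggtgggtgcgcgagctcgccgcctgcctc
Grm2: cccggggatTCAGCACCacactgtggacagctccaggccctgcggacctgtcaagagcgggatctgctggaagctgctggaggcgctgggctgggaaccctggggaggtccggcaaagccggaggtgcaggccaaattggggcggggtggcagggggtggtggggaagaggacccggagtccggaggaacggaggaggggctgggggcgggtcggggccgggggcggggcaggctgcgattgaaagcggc

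The receptor genes were a minor part of the RNA. Values are normalized read counts, the authors' counts after scaling each library by a DESeq2 size factor; totals were 15924780 to 18787932 per library. Summed over the 45 genes, they came to 5075 ± 677.8 in sham contralateral and 6573 ± 378.6 in sham ipsilateral libraries at 24 h, and to 5594 ± 771.3 and 6976 ± 1614 in the same groups at 7 days (mean ± SD, n = 3 in every group). The contralateral side of tMCAO animals gave 5727 ± 1137 at 24 h and 9243 ± 4815 at 7 days, where the libraries read 14803, 6457 and 6469. The ipsilateral side of tMCAO animals gave 3592 ± 190.7 at 24 h and 2315 ± 722.4 at 7 days. All 6 of those libraries lay below all 18 others.

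One library stood apart. In the tMCAO contralateral library of replicate 1 at 7 days the 45 genes summed to 14803, which was 2.66 times the median of the other 23 libraries, and 41 of the 45 genes had their highest value there. The marker panel for neurons (15 genes, mean log2 value) was 10.67 in that library and 6.64 to 9.73 in the others, and the astrocyte panel was 11.78 against 9.55 to 11.25. Changes and counts that rest on this library's group are given with and without it.

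**Figure D1:**
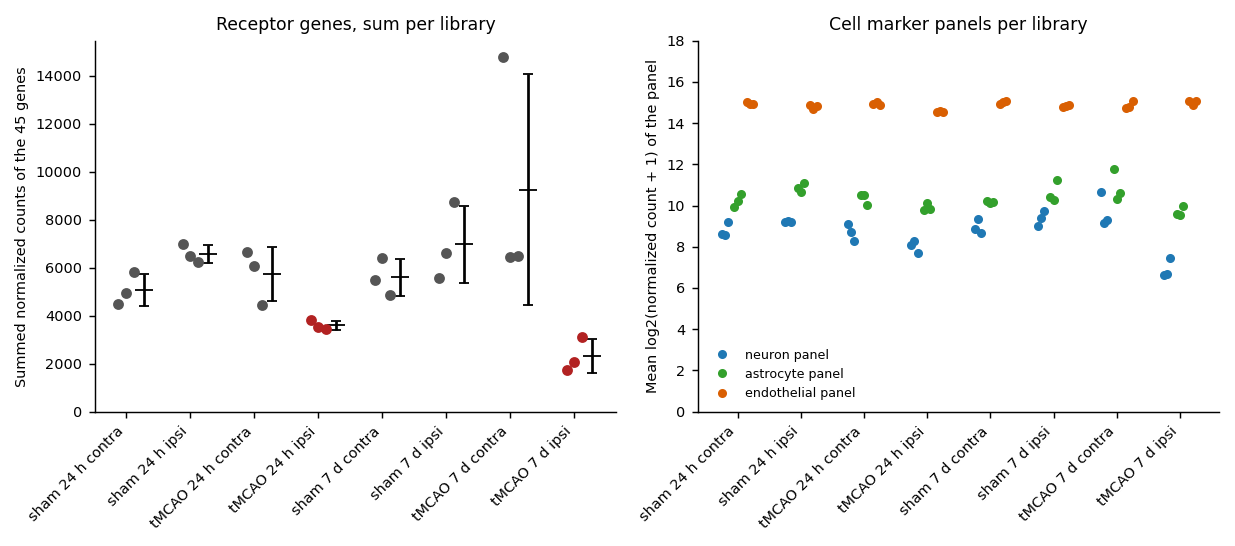
Left: summed normalized counts of the 45 receptor genes in each of the 24 libraries by group (points), with the group mean and SD (bars); the 6 ipsilateral tMCAO libraries (red) lie below the 18 others, and 1 tMCAO contralateral library at 7 days reaches 14803. Right: mean log2(normalized count + 1) of the neuron, astrocyte and endothelial marker panels in the same libraries; the neuron panel is lowest in the 7-day ipsilateral tMCAO libraries and the endothelial panel stays between 14.53 and 15.08.

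The tissue label was checked against markers. The endothelial panel (12 genes) averaged 14.53 to 15.08 on the log2 scale and the mural panel (11 genes) 12.02 to 13.05, above every neuron panel value. None of the 15 neuron or 11 astrocyte markers was at 0 throughout. Endothelial and mural markers were thus the most abundant of these panels, with neuron and astrocyte markers present below them. In such bulk samples, fewer cells of a type and less RNA per cell cannot be told apart.

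Levels between genes were compared in the 12 sham libraries as normalized counts per kb of exon (mean ± SD over those libraries). Gabbr1, the ligand-binding subunit of the GABA-B receptor, was highest at 187.4 ± 38.1. Grik5, a kainate subunit that needs a partner to form a channel, followed at 83.6 ± 14.9, then Gria1 at 75.7 ± 21.2 and Glrb, the glycine receptor subunit that binds gephyrin, at 71.8 ± 9.62. The spreads of the last 3 overlap, so their order is not resolved. Grm3 at 44.7 ± 9.44, Grin1, the obligatory NMDA subunit, at 44.5 ± 9.59 and Gabbr2 at 39.6 ± 11.4 came next and also overlapped. At the other end, Glra3 had 0.670 ± 0.296, Gabre 0.897 ± 0.534 and Grm8 0.994 ± 0.473.

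Within classes 1 or 2 genes took most of the level per kb. Among AMPA subunits, Gria1 at 75.7 stood above Gria3 at 12.6, Gria4 at 10.9 and Gria2, the subunit that makes AMPA channels impermeable to calcium, at 8.57. The NMDA genes led with Grin1 and Grin2c at 28.3, while Grin2a and Grin2b, the main forebrain glutamate-binding subunits, were at 6.31 and 6.54. The length counts all annotated exons of a gene, and parts of these orders depend on it. In plain counts Grin2b (162.5 ± 51.8) lay above Grin2c (142.5 ± 54.7), and Grin2a (113.2 ± 31.1) below. Gria2 (133.2 ± 21.6) lay above Gria3 (124.2 ± 21.6) and Gria4 (68.8 ± 21.7). The spreads of Grin2b and Grin2c overlapped, as did those of Gria2 and Gria3. Among metabotropic receptors Grm3 was followed by Grm7 at 14.8. The GABA-A subunits were more even: 7 of the 16, led by Gabra2 at 24.6, lay between 18.1 and 24.6.

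**Figure D2:**
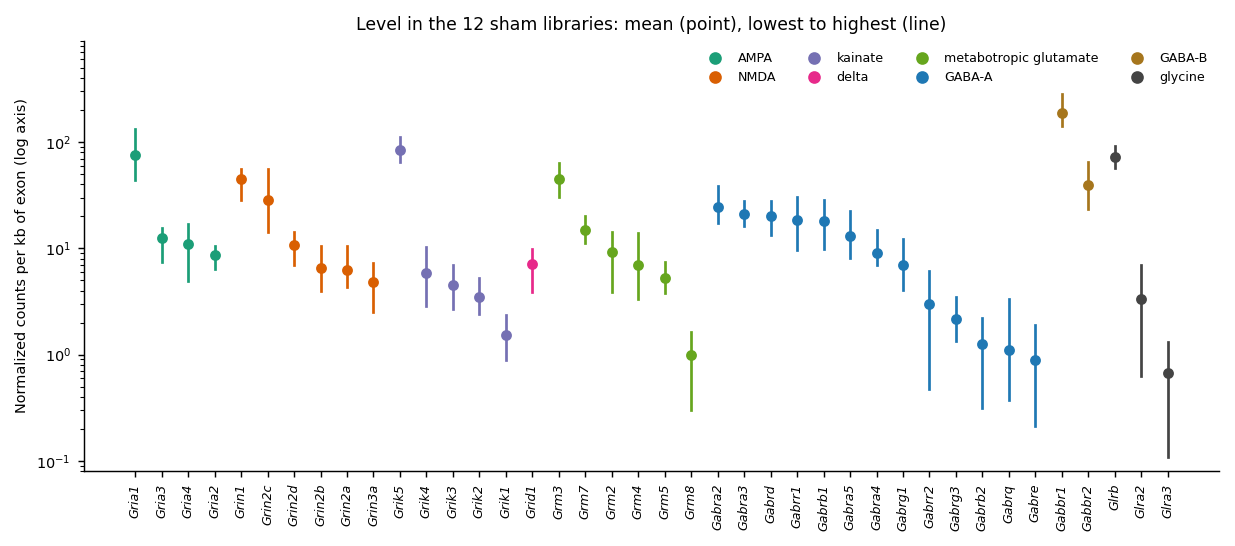
Level of 40 of the 45 receptor genes in the 12 sham libraries as normalized counts per kb of exon on a log axis, by receptor class; points are means and lines run from the lowest to the highest library. Gabbr1 is highest at 187.4, and the levels span down to 0.670 for Glra3.

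All 45 genes had a value, but 1 did not reach a mean of 5 over the 24 libraries: Gabre, whose highest value was 10, was not tested. The other 44 were tested together with all 15982 genes above that mean, by limma on log2(normalized count + 1). A gene was called where the Benjamini-Hochberg adjusted p, over all genes tested, was below 0.05 and the change exceeded 1.5-fold. Fold changes on this scale understate the change of genes with low values. The libraries of a group are separate pools of hemispheres, so p-values measure the spread between pools.

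The first question is what the occluded side had lost 24 h after tMCAO relative to the same side after sham surgery. Of the 44 genes, 23 were called lower and 0 higher, against 8.23% of all genes lower and 10.0% higher. The median change was -1.05 on the log2 scale, beside -0.02 over all genes tested, and all 44 values were negative; 28 had an unadjusted p below 0.05, as did 42.1% of all genes in either direction. The groups did not overlap, with stroke below sham, in 37 of the 44, and in 24.1% of all genes. The split of all genes was 1316 lower and 1603 higher, and became 1707 and 1331 when libraries were centred on their median gene; the receptor genes then counted 25 lower and 0 higher.

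Glrb had the smallest p-value of the group. It was at 345, 431 and 294 in sham ipsilateral libraries and at 137, 104 and 149 after tMCAO. The 3 stroke libraries lay below every sham library, and the change was -1.45 ± 0.16 (SE), or 2.73-fold lower (adjusted p = 4e-06, limma). The gene lies at chr3:80843599-80913660 on the minus strand (coordinates here and below are those of the file, mm10).

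Of the 15 GABA-A receptor genes tested, 10 were called lower at 24 h, with a median of -1.24. Gabra3, an alpha subunit, read 104, 81 and 68 in sham and 32, 36 and 28 after tMCAO (-1.36 ± 0.33, adjusted p = 0.0043, limma). Gabra4, another alpha subunit, went from 51, 54 and 52 to 17, 27 and 22 (-1.24 ± 0.34, adjusted p = 0.00958, limma). In neither gene did the groups overlap. Gabra5, Gabrb1, Gabrd, Gabrg1 and Gabrr1 were also among the genes called. In that order, their calls were lost in 4, 2, 2, 2 and 3 of 13 alternative settings. Gabrb2 was the exception in value, at 5, 10 and 8 in sham and 5, 13 and 5 after tMCAO (-0.08 ± 0.55), with both groups spread over the same few counts. Glra2, an alpha subunit of the glycine receptor, had the lowest fitted change, -2.10 ± 0.75 (adjusted p = 0.0397, limma), but at 22, 19 and 16 against 4, 3 and 4 counts, and the call was lost in 8 of 12 alternative settings.

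Many GABA-A genes sit in neighbouring groups in the genome. Within 1400 kb of chromosome 5 (chr5:70751047-72149037) Gabrg1, Gabra4 and Gabrb1 were called, at -1.36, -1.24 and -1.23, and Gabra2 was not, at -0.64 ± 0.27. A difference between neighbours was not tested.

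Both GABA-B genes were called lower. Gabbr1, the most abundant receptor gene (chr17:37045966-37075067), read 1664, 1433 and 1574 in sham and 1019, 1003 and 959 after tMCAO, which was 1.56-fold lower (-0.64 ± 0.22, adjusted p = 0.0331, limma). Gabbr2, the subunit that couples to the G protein, read 338, 297 and 288 against 168, 158 and 123 (-1.04 ± 0.36, adjusted p = 0.0357, limma). Every stroke library was below every sham library in both genes. The call of Gabbr1 was lost in 5 and that of Gabbr2 in 6 of 13 alternative settings.

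Among glutamate receptors 9 of 24 were called lower, with a median of -0.83. The AMPA genes accounted for 3 of these. Gria4 fell from 107, 99 and 83 to 31, 38 and 44 (-1.34 ± 0.37, adjusted p = 0.0106, limma), Gria3 was at -0.96 ± 0.24 and Gria2 at -0.86 ± 0.29. The call of Gria2 was lost in 5 of 13 alternative settings. Gria1 missed the threshold at -0.87 ± 0.33 (adjusted p = 0.0501, limma) although its groups did not overlap, at 512, 444 and 483 against 301, 252 and 238.

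The NMDA genes were divided. Grin2a, Grin2b and Grin3a were called, at -1.003, -1.22 and -1.19. The calls of Grin2a and Grin3a were lost in 4 and 5 of 13 alternative settings. Grin1 was at -0.78 ± 0.35 and Grin2c at -0.80 ± 0.40, neither called. Grin2d (chr7:45831883-45870429), an NMDA subunit known from interneurons and early development, read 61, 94 and 89 in sham and 45, 63 and 91 after tMCAO (-0.32 ± 0.30), so that the groups overlapped.

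Of the kainate, delta and metabotropic genes, 1 of 5, 1 of 2 and 1 of 7 were called. These were Grik3 at -1.39 ± 0.42, Grid1 at -1.25 ± 0.36 and Grm5, a receptor of neurons and astrocytes that couples to calcium release, at -1.05 ± 0.36. Their calls were lost in 1, 2 and 5 of 13 alternative settings. Grik5 was at -0.48 ± 0.29, Grik4 at -0.65 ± 0.44, Grik1 at -0.62 ± 0.47 and Grik2 at -0.43 ± 0.32. Grm3 was at -0.55 ± 0.27 and Grm7 at -0.55 ± 0.27.

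Marker panels moved with these genes. At 24 h against sham, 10 of 15 neuron markers and 8 of 11 astrocyte markers were called lower, with median changes of -1.19 and -1.07. The neuron panel was 7.70 to 8.27 on the log2 scale in the stroke libraries and 9.19 to 9.23 in sham; the astrocyte panel was 9.80 to 10.14 and 10.65 to 11.11. Neither overlapped. Endothelial markers were called lower in 3 of 12 (median -0.13). The endothelial panel was 14.53 to 14.60 in the stroke libraries and 14.68 to 14.89 in sham, again without overlap. Panels of oligodendrocytes and their precursors also lay below sham without overlap, with mean changes of -0.704 and -0.459. Those of mural cells and microglia overlapped with sham. Markers of neutrophils and monocytes were called higher in 9 of 9, by a median of 2.76. Of the lists for single neuron types, 0 of 8 markers of glutamatergic neurons, 3 of 9 of GABAergic neurons and 5 of 9 of striatal projection neurons were called lower, with medians of -0.66, -0.87 and -1.06. The mean change of the neuron panel was -1.19, and 26 of the 44 receptor genes lay above that value. Against the lists of glutamatergic and GABAergic neurons, whose mean changes were -0.63 and -0.67, 8 and 12 did. Against that of striatal projection neurons, at -1.08, 23 did. The part of these cell markers in the result was not tested.

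**Figure D3:**
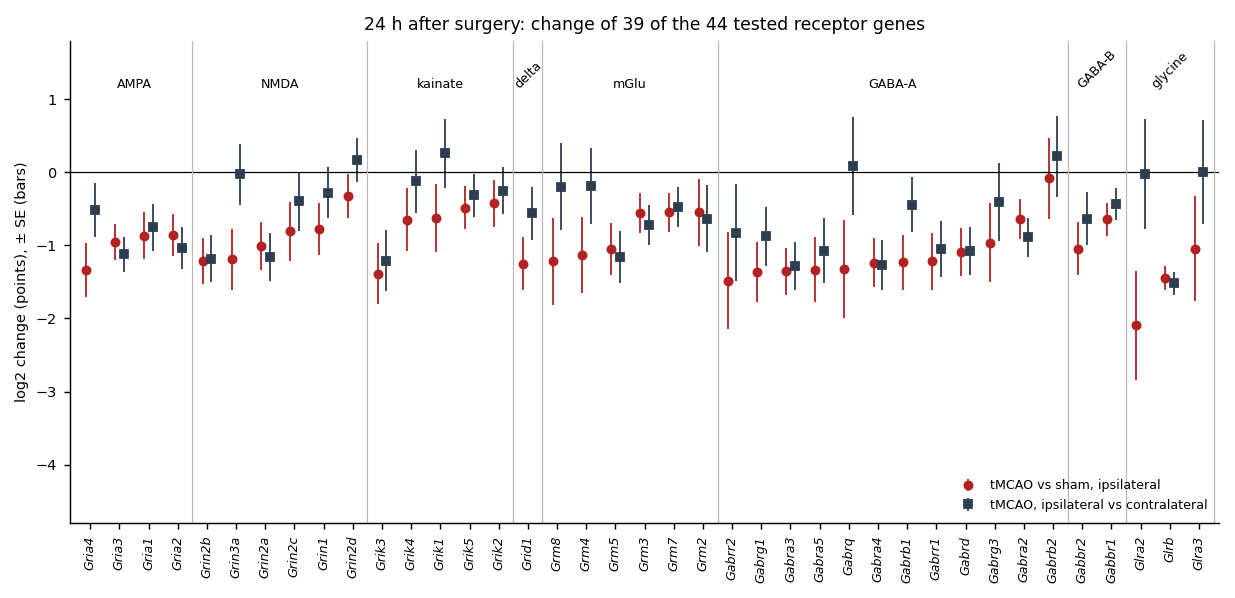
log2 change ± SE at 24 h for 39 of the 44 tested receptor genes, by class: tMCAO against sham on the ipsilateral side (red circles) and tMCAO ipsilateral against contralateral (dark squares), 3 libraries a group. Against sham all values shown are negative, with Glra2 lowest at -2.10 and Gabrb2 nearest to 0 at -0.08.

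The second question compares both hemispheres of the tMCAO animals at 24 h. Here 14 of 44 receptor genes were called lower and 0 higher, where 5.14% of all genes were lower and 8.52% higher. The median was -0.60, beside -0.02 over all genes, and 39 values were negative; 19 genes had an unadjusted p below 0.05, where 37.2% of all genes did, so that this count lay near the background. In 20 of the 44 the ipsilateral libraries lay wholly below the contralateral ones, which held for 19.1% of all genes. This comparison and the one against sham share the ipsilateral stroke libraries. Same-numbered libraries of the hemispheres carry the same pool number, and this pairing was left out of the fit. With the mouse pool as block, 17 of 44 were called lower, where 6.96% of all genes were. Contralateral libraries of tMCAO animals spread widely, with sums of 6640, 6087 and 4454 over the 45 genes.

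Glrb had the lowest change in this comparison, at 370, 410 and 336 on the contralateral and 137, 104 and 149 on the ipsilateral side (-1.52 ± 0.16, adjusted p = 3e-06, limma). Gabra3 was at -1.29 ± 0.33 and Gabra4 at -1.27 ± 0.34. The 14 called genes were 7 GABA-A genes, among them Gabra2, Gabra3, Gabra4 and Gabrd, and Gria2, Gria3, Grin2a, Grin2b, Grik3, Grm5 and Glrb. Of 13 alternative settings, the call was lost in 6 for Grik3, 4 for Grm5 and 3 each for Gabra2, Gabrd and Grin2a. It was lost in 1 each for Gabra4, Gria2 and Grin2b. Gabra2, not called against sham, read 224, 282 and 146 against 117, 112 and 109 (-0.89 ± 0.27, adjusted p = 0.0201, limma). Grik1, Gabrb2 and Grin2d had the highest values, 0.26 ± 0.47, 0.22 ± 0.55 and 0.17 ± 0.30, each with overlapping groups. Beside them, 4 of 15 neuron and 4 of 11 astrocyte markers were called lower, with medians of -0.68 and -0.59. For glutamatergic, GABAergic and striatal projection neurons it was 3 of 8, 1 of 9 and 6 of 9 markers. Their medians were -0.915, -0.454 and -1.158, so the lists stood in another order than against sham. The part of these markers in the result was not tested.

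At 7 days the fall was the one for which the genes had been proposed. Against sham on the same side, 34 of 44 met the call rule as lower and 0 as higher, against 9.95% and 3.27% of all genes, and the median was -1.96. Against the contralateral side 38 of 44 did and 0 higher, against 9.98% and 3.03%, with a median of -2.28. Without the contralateral library that stood apart it was 33 of 44 and -1.66, where 7.21% of all genes were lower. From 24 h to 7 days on the ipsilateral side, 17 of 44 were lower and 0 higher, where 8.44% and 3.72% of all genes were, with a median of -0.96. These counts only describe the choice of genes. In 42 of the 45 genes the lowest value of the 24 libraries was, alone or tied, in an ipsilateral tMCAO library at 7 days.

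Grin2a, which encodes the main adult NMDA partner of Grin1 (chr16:9567898-9994923), had the lowest change at 7 days. It read 119, 137 and 187 in sham ipsilateral libraries and 9, 10 and 18 after tMCAO, 11.4-fold lower (-3.51 ± 0.33). Contralateral values were 357, 143 and 142. Each of the 3 stroke libraries was below all others.

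Grik3 went from 40, 63 and 57 to 6, 4 and 10 (-2.88 ± 0.42) and Gabra3 from 91, 94 and 110 to 9, 15 and 16 (-2.83 ± 0.33). Gria2, whose promoter is printed above, read 130, 147 and 162 in sham and 13, 23 and 35 after tMCAO (-2.68 ± 0.29). Grm2, the other printed promoter, is a presynaptic metabotropic receptor that read 39, 69 and 65 in sham and 4, 8 and 25 after tMCAO. Gabbr2 was at -2.61 ± 0.36 and Gabbr1 at -1.09 ± 0.22, so that the 2 subunits of 1 receptor differed in their fitted values; that difference was not tested.

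Against sham, the smallest changes at 7 days were in a few genes of different classes. Grin2d read 60, 88 and 70 in sham ipsilateral, 105, 63 and 64 in tMCAO contralateral and 44, 55 and 78 in tMCAO ipsilateral libraries (-0.32 ± 0.30 against sham). Grik4 read 25, 33 and 62 in sham against 16, 21 and 44 (-0.57 ± 0.44). Gabrr1, a rho subunit best known from the retina, read 40, 22 and 39 against 23, 17 and 25 (-0.58 ± 0.39). Grin2c, a cerebellar and astrocyte NMDA subunit, read 148, 144 and 282 against 60, 86 and 170 (-0.92 ± 0.40). In all 4 the stroke and sham groups overlapped. Against the contralateral side the order was another one: Grin2d (-0.38 ± 0.30) and Gabrr1 (-0.95 ± 0.39) were again smallest, followed by Grm3 (-1.12 ± 0.27) and Grm7 (-1.22 ± 0.27), while Grin2c and Grik4 were at -1.47 ± 0.40 and -1.48 ± 0.44. Of these 6, Grm3, Grm7, Grin2c and Grik4 met the call rule. In that comparison the groups of Gabrr1, Grik4, Grm3 and Grm7 did not overlap, and those of Grin2d and Grin2c did. Without the library that stood apart, Grm7 alone of the 6 met the rule, at -0.86 ± 0.25; Grin2d was at -0.14 ± 0.32, Grm3 at -0.80 ± 0.26, Grin2c at -0.97 ± 0.38, Gabrr1 at -1.01 ± 0.44 and Grik4 at -1.15 ± 0.47. From 24 h to 7 days, Gabrr1 (0.34 ± 0.39) and Grin2c (0.16 ± 0.40) were the only 2 of the 44 with a positive value.

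The 7-day ipsilateral libraries were not alike. For Gria1 they read 147, 140 and 322, for Grik5 141, 256 and 383, for Grin2c 60, 86 and 170 and for Grik4 16, 21 and 44, with replicate 3 highest in each. Glrb and Grm3 were tighter, at 69, 79 and 87 and at 50, 57 and 61. In the same libraries the neuron panel ran from 6.64 to 7.46 and the astrocyte panel from 9.55 to 9.97.

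At 7 days the panels of neurons and astrocytes parted. Against sham, 14 of 15 neuron markers met the call rule as lower (median -2.61) and 5 of 11 astrocyte markers did (median -1.14). Markers of glutamatergic, GABAergic and striatal projection neurons met it in 7 of 8, 7 of 9 and 6 of 9 (medians -2.83, -2.51 and -2.37). In the GABAergic list 1 marker met the rule as higher. Of the 44 receptor genes, 33 fell less than the neuron panel, whose mean change was -2.44, and 5 fell less than the astrocyte panel, at -0.94. At 24 h the panel means were -1.19 and -0.94, and 26 and 17 of the 44 lay above them. Endothelial markers were called in neither direction at 7 days (0 of 12, median 0.25). Choroid plexus markers were also lower in 4 of 8 (median -2.22). Markers of oligodendrocyte precursors were lower in 4 of 8 and higher in 1 (median -1.22). The part of these panels in the receptor values was not tested.

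**Figure D4:**
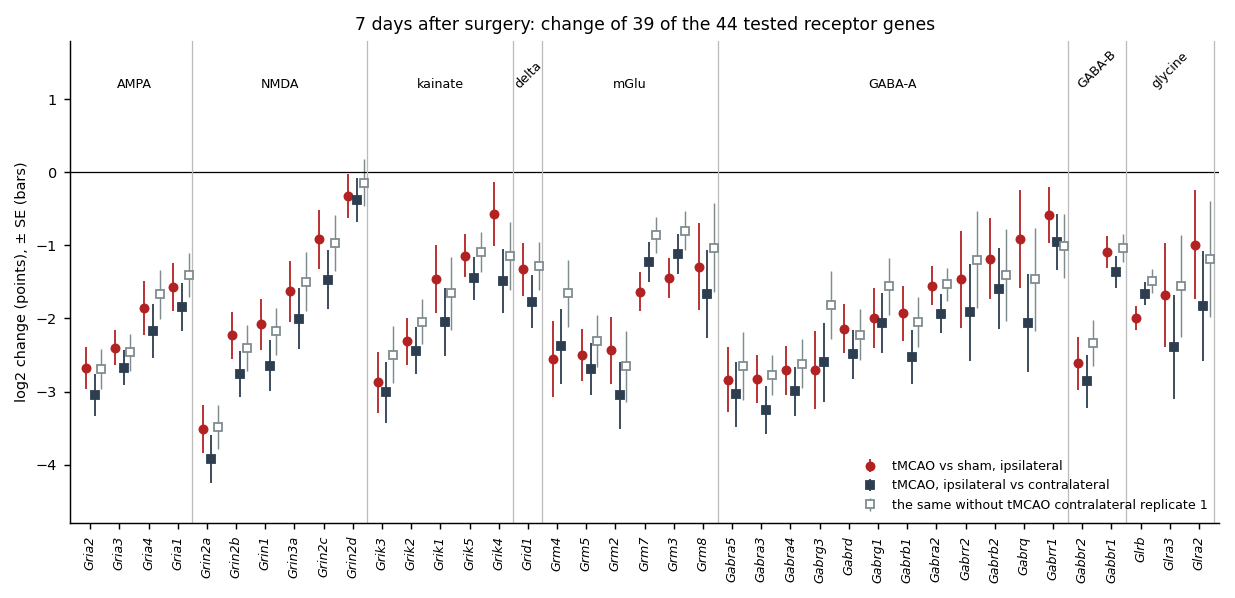
log2 change ± SE at 7 days for 39 of the 44 tested receptor genes, by class: tMCAO against sham on the ipsilateral side (red circles) and tMCAO ipsilateral against contralateral with all libraries (dark squares) and without contralateral replicate 1 (open grey squares); groups have 3 libraries otherwise. Grin2a is lowest at -3.51 against sham, and Grin2d is nearest to 0 at -0.32.

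The share of each class in the summed values was set beside that in the 18 libraries from other groups. GABA-B genes made up 31.2% to 33% in tMCAO ipsilateral libraries at 24 h and 32.2% to 39.1% at 7 days, above the 25.9% to 30.4% of the 18 others. This share was chiefly Gabbr1. At 7 days Gabbr1 and Gabbr2 averaged 773 and 50 counts in tMCAO ipsilateral libraries, and 1663 and 313.7 in sham ipsilateral libraries. GABA-A genes made up 15.4% to 16.2% and 11.7% to 15.9%, below the 17.4% to 21.7% of the others. For kainate genes the ranges overlapped, with 10.8% to 11.4%, 9.84% to 14.5% and 7.85% to 11.5%. Those of glycine receptor genes, chiefly Glrb, overlapped too. They had 3.10% to 4.47% and 2.98% to 4.09% on the stroke side, 5.02% to 7.04% in sham ipsilateral libraries at 24 h and 4.09% to 5.47% at 7 days. On the contralateral side of tMCAO animals at 7 days they had 2.45% to 3.80%, the lowest being the library that stood apart. These shares sum counts that are not corrected for gene length and were not tested.

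Lists of further synapse genes were counted in the same fits. They share some genes with the marker lists above, among them Camk2a, Gad2 and Slc17a7, so they are not a separate set. At 24 h against sham, where 8.23% of all genes were called lower, 10 of 21 scaffold and signalling genes of glutamate receptors were called lower (median -0.76), 7 of 20 auxiliary subunits (-0.75), 6 of 15 anchoring and auxiliary genes of GABA and glycine receptors (-0.66) and 12 of 22 genes of transmitter synthesis and transport (-0.84), the last with 1 called higher. Camk2a, a kinase of the postsynaptic density, was at -1.31 ± 0.35 on the log2 scale, and Dlg2, a scaffold that holds NMDA receptors, was at -1.49 ± 0.33. Gad2, which makes GABA, was at -1.90 ± 0.51. Shmt2, a mitochondrial enzyme that converts serine and glycine, was called higher, at 0.98 ± 0.15. Shank3 (0.25 ± 0.33) and Gabarap (0.25 ± 0.12) were called in neither direction.

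At 7 days against sham, where 9.95% of all genes met the call rule as lower, the auxiliary subunits did so in 17 of 20 (median -2.49), the scaffold genes in 13 of 21 (-1.26), transmitter genes in 14 of 22 (-1.34) and anchoring genes in 7 of 15 (-0.59). Gad2 (-3.52 ± 0.51) and Slc17a7, the vesicular glutamate transporter of cortical neurons (-2.95 ± 0.32), were lowest among transmitter genes, and Glul, the glutamine synthetase of astrocytes, was at 0.25 ± 0.17. Gsg1l, an AMPA receptor auxiliary subunit, was at 0.29 ± 0.38, after -1.48 ± 0.38 at 24 h. From 24 h to 7 days on the ipsilateral side the auxiliary subunits met the rule as lower in 10 of 20 (median -1.21), the scaffold genes in 0 of 21 (-0.29), transmitter genes in 5 of 22 (-0.46) and anchoring genes in 3 of 15 (0.01), where 8.44% of all genes did. Of the anchoring genes 1 met the rule as higher.

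Control comparisons gave the background of these changes. None of the 44 receptor genes was called in any of 7 comparisons among control groups by limma. Between the hemispheres of sham animals 0% of all genes were called at 24 h and 0% at 7 days; at an unadjusted p below 0.05 there were 3 and 0 receptor genes, beside 2.30% and 2.25% of all genes. Between 7 days and 24 h after sham, 0.476% of all genes were called on the ipsilateral and 0.332% on the contralateral side, and 1 and 0 receptor genes had an unadjusted p below 0.05, beside 14.1% and 10.8% of all genes. On the contralateral side, tMCAO against sham gave 0% of all genes at 24 h and 0.0313% at 7 days, with 0 and 18 receptor genes at an unadjusted p below 0.05, beside 2.53% and 10.3% of all genes. Without the library that stood apart, the 18 became 2, beside 4.69%. Contralateral tMCAO libraries at 7 days against 24 h gave 0%, with 15 receptor genes at an unadjusted p below 0.05, beside 16.5% of all genes, and 3 without that library, beside 11.4%.

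The control groups held a pair of patterns below the threshold. In sham animals the ipsilateral side read higher than the contralateral in 39 of 44 genes at 24 h (median 0.46) and in 36 of 44 at 7 days (median 0.30). Neuron and astrocyte panels were higher there too, by 0.41 and 0.65 at 24 h and by 0.39 and 0.47 at 7 days. The sham ipsilateral groups, the references of the stroke comparisons, thus read higher than sham contralateral in most of these genes at both times. Contralateral libraries at 7 days were higher after tMCAO than after sham by a median of 0.63, and by 0.21 without the library that stood apart; against 24 h the medians were 0.64 and 0.19.

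The 12 contralateral libraries, each from another pool, were used to ask which receptor genes followed the neuron panel where no infarct lay. Pearson's r with the panel was positive in 42 of 44 genes, with a median of 0.82, beside -0.004 over all genes tested. After Benjamini-Hochberg adjustment over all genes (2-sided permutation test, 100000 permutations, n = 12), 23 of 44 were called positive, where 5.79% of all genes were. With Spearman's rho 5 of 44 were called. When the 2 libraries farthest from the panel median were left out (tMCAO replicate 1 at 7 days and tMCAO replicate 3 at 24 h), the median r was 0.47 and 39 genes stayed positive, so the strength of the relation rests in good part on those 2 libraries.

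Grin1 followed the panel most closely, with r = 0.98 and rho = 0.88 (adjusted permutation p = 0.00176 and 0.0234, n = 12) and r = 0.92 without the 2 libraries. Gabrb1, a GABA-A beta subunit, had r = 0.97 and rho = 0.94 (adjusted permutation p = 0.00176 and 0.00999), and r = 0.91 without them. Gabra3 had r = 0.96 and rho = 0.88 (adjusted permutation p = 0.00256 and 0.0232), and r = 0.83. Gabbr1 had r = 0.95 and rho = 0.90 (adjusted permutation p = 0.00805 and 0.0227), and r = 0.81.

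At the other end were Glrb, Gabrr1, Grm3 and Grm7, with r of -0.17, -0.07, 0.14 and 0.40 and adjusted permutation p of 0.805, 0.940, 0.824 and 0.491. In the library with the high neuron panel, where most receptor genes peaked, Glrb read 314, beside 309, 324 and 268 in sham contralateral libraries of the same time, and Gabrr1 read 39 beside 69, 28 and 32. Grm3 read 192 beside 130, 92 and 158. After removal of the 4 group means Glrb had r = 0.91, since its level differed between the groups: 353, 347 and 392 in sham at 24 h against 314, 213 and 229 after tMCAO at 7 days. Gabrr1 stayed at -0.15. The median over the 44 genes after removal of the group means was 0.83.

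The astrocyte panel gave almost the same order, since the panels themselves correlated at r = 0.89 over these libraries. The median r with it was 0.79, and 1 of 44 genes was called positive, where 0.156% of all genes were (2-sided permutation test, adjusted over all genes, n = 12). With Spearman's rho 0 were called, and without the 2 libraries farthest from that panel's median (tMCAO replicate 1 at 7 days and sham replicate 1 at 24 h) the median r was 0.42. The neuron panel gave the higher r in 26 genes and the astrocyte panel in 18. Gria2, for example, had r = 0.59 with the neuron and 0.79 with the astrocyte panel, and Grm3 0.14 and 0.37. The difference between these coefficients was not tested.

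**Figure D5:**
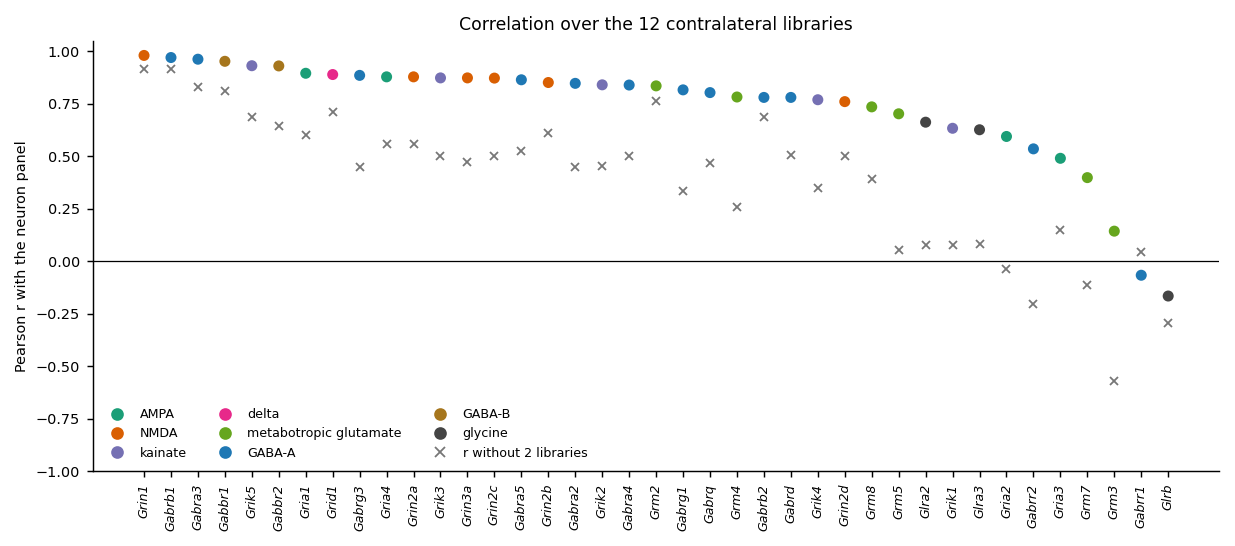
Pearson r of 39 of the 44 tested receptor genes with the neuron panel over the 12 contralateral libraries (coloured points, by class) and again without the 2 libraries farthest from the panel median (grey crosses). Grin1 is highest at 0.98, and Glrb (-0.17) and Gabrr1 (-0.07) are the 2 genes below 0 over all 12.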

How the data were processed

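RNA of brain microvessels was sequenced from poly(A) libraries with a stranded kit. Per the labels, the authors aligned reads to mm10 with STAR 2.5.2b, counted them per gene with featureCounts 1.5.1 and normalized with DESeq2 1.6.2 (the study's methods name other versions of STAR and DESeq2). The deposited score is the read count divided by a size factor and rounded to whole numbers. Size factors recovered from gaps between low values were 0.805 to 1.238, which puts reads on genes at 13692148 to 20033304 per library; precision is limited by 3 pools a group.

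Groups came from the sample titles. limma 3.58.1 (trend, R 4.3.3) was fitted to log2(value + 1) over all 24 libraries for 15982 genes with a mean above 5, with Benjamini-Hochberg adjustment over all of them. Because values are normalized and rounded, no count model was used. The fit was first tested on simulated data. Correlations were computed in Python 3.11.15 with numpy 2.4.6. Exon lengths were taken from GENCODE M21 as the union of all annotated exons of a gene. Same-numbered ipsilateral and contralateral libraries carry 1 pool number in their titles; the correlation of their deviations from the group means was over 0.1 in each of 3 pairs for sham at 24 h and 7 days, and averaged 0.251 and 0.144 for tMCAO.

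The genes, marker panels and synapse lists were chosen with earlier results of these data known. Genes were named by a rule: the 2 with the highest level per kb in each class, the 3 lowest and 3 highest changes in each stroke comparison, any called higher or called in controls, those known also outside neurons, the 3 highest and 3 lowest correlations, and, in each synapse list, the extremes. Some of these genes are not reported here by name and are left out of the plots by gene, but counts and medians include them. Other genes named were chosen after their values were seen: Grm2, Grm8, Glra3, Gabra4, Gabra5, Gabrd, Grin2b and Grin3a. Other settings tried were the pseudocount, the filter, centring, the groups fitted, the fold limit, the replicate block and leaving out each library.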

Additional observations from a re-analysis of the deposited data

How the results depend on the processing

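No receptor gene changed direction in its called comparison at 24 h under any of the settings run. Leaving out 1 library at a time gave 10 to 18 genes called lower against sham at 24 h (10 without sham ipsilateral replicate 1, 15 without replicate 2, 14 and 13 without tMCAO ipsilateral replicates 1 and 2), beside 23 with all libraries; 9 of the 23 held in every setting, among them Gabra3, Gabra4, Glrb, Gria3, Gria4 and Grin2b. Between hemispheres at 24 h the range was 6 to 14 (6 and 8 without tMCAO contralateral replicates 1 and 2, 8 without tMCAO ipsilateral replicate 2), and 4 of 14 held in every setting, among them Gabra3, Glrb and Gria3. At 7 days it was 30 to 36 against sham, 33 to 40 between hemispheres, and 10 to 21 for 7 days against 24 h (10 without tMCAO ipsilateral replicate 1 of either time). Genes called higher stayed at 0 to 0 in these 5 comparisons, and genes called lower at 0 to 0 in the 7 control comparisons. Over the fits without 1 library, the share of all genes called lower varied too. At 24 h it was 5.21% to 8.78% against sham and 3.35% to 6.58% between hemispheres. At 7 days it was 7.08% to 9.82% against sham and 7.21% to 10.6% between hemispheres. For 7 days against 24 h it was 4.99% to 7.93%.

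With only the compared groups in the fit, 25 genes were lower between hemispheres at 7 days, 10 at 7 days against 24 h, 30 against sham at 24 h, 13 between hemispheres at 24 h and 29 against sham at 7 days. In the same order, 5.61%, 6.65%, 8.94%, 4.46% and 7.94% of all genes were called lower. The cause was not tested. With the replicate block the counts were 22 and 33 against sham at 24 h and 7 days, 17 and 39 between hemispheres with the mouse pool as block, and 17 for 7 days against 24 h, all within 1.5 times the unpaired ones. In the same order, 7.73%, 9.76%, 6.96%, 11.1% and 8.1% of all genes were called lower. Median centring moved the median of all genes from -0.039 to 0.066 for 7 days against 24 h and changed no direction of a called receptor gene. At 3 pools a group, a gene that was not called may still have changed.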
